A study of Homo sapiens with 12 samples.

Results

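Cholesterol and fatty acids are both built from acetyl-CoA, and 32 human genes of these 2 routes are described here in HGC-27, a cell line from a human gastric cancer. The genes were chosen by role, though with earlier results of these data known. They comprise 8 enzymes of the mevalonate steps, 11 enzymes from squalene to cholesterol, 6 genes of SREBP control and sterol transport, and 7 enzymes of fatty acid synthesis, elongation and desaturation. Of the 32, 31 were found among the 20345 rows of the expression table, and all 31 were among the 11225 tested rows, whose mean reached 1 FPKM (sequenced fragments for each kilobase of a gene's transcript, relative to the library's total). No row could be paired with ACACA, an acetyl-CoA carboxylase, so it has no value here. RNA was sequenced from 12 libraries in 4 groups of 3, namely WT untreated, WT with GLUP, TEAD4KO untreated and TEAD4KO with GLUP. GLUP is a cyclic glue peptide modelled on the part of VGLL4 that binds TEAD4, the transcription factor through which Hippo signalling acts on genes. The labels give no dose and no time, the study's text gives treatment times that disagree, and neither says whether TEAD4KO is 1 clone. The study's methods speak of biological replicates without saying which libraries came from separate cultures, and p-values measure the spread between these libraries. The labels give the controls no treatment, whereas the study's methods name the buffer of the peptide. Libraries are numbered 1, 2 and 3 without the peptide and 14, 15 and 16 with it.

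The mevalonate steps turn acetyl-CoA into isoprenoid units, which FDPS and FDFT1 join into squalene, and a chain of endoplasmic reticulum enzymes turns squalene into cholesterol. SREBF1 and SREBF2 encode membrane-bound transcription factors, the SREBPs, which the escort protein SCAP carries to the Golgi for cleavage when sterols are low, while INSIG1 and INSIG2 hold SCAP back when sterols are high. Cleaved SREBPs act on promoters of these same genes together with NF-Y and Sp1, and SREBF1 is the form best known for fatty acid genes.

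Promoters of 4 of these genes are shown so that such matches can be seen. The windows come from the RefSeq table on GRCh38.p14, on the plus strand, and end at the base before the annotated start. SREBF2 is shown for its match to the core of a sterol regulatory element, and FDPS, TM7SF2 and SCD because the results below turn on them. Capitals mark the 8 letters of that core in SREBF2 and the 5 letters of NF-Y boxes on either strand in all 4.
SREBF2, chr22:41832855-41833104: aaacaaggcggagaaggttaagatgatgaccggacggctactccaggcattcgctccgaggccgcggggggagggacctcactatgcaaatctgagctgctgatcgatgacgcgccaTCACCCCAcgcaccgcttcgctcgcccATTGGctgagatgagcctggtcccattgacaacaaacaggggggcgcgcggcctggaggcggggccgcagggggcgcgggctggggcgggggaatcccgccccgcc
FDPS, chr1:155308616-155308865: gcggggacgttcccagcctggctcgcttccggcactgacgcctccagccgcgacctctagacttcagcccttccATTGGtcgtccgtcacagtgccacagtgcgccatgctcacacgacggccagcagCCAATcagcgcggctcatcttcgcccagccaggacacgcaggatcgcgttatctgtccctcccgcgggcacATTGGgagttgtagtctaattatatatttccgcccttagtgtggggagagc
TM7SF2, chr11:65111622-65111871: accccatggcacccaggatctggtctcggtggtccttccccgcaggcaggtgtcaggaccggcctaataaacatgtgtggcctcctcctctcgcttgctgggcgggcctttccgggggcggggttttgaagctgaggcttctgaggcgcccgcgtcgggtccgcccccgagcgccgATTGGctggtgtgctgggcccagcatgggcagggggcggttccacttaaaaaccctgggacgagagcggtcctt
SCD, chr10:100346983-100347232: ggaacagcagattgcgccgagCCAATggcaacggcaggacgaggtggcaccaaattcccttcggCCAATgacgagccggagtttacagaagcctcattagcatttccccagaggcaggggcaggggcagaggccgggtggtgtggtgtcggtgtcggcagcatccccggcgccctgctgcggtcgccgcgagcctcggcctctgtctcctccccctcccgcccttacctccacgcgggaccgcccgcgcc

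Of the 32 genes, 28 had a promoter in that table. In windows that also take the 50 bases after the start, 21 of the 28 genes held an NF-Y box (CCAAT on either strand), or 75.0%, against 39.7% of the 27305 genes in the table. A GC box of the Sp1 kind (GGGCGG) was present in 27 of 28 genes, or 96.4%, against 48.3%. The sterol regulatory element core (TCACNCCA) was found in 3 genes, MVK, MSMO1 and SREBF2, which is 10.7% against 4.8%. The E-box CACGTG was found in 4 genes, or 14.3% against 8.8%. Each motif was searched on both strands and counted without regard to overlap with another. A gene counted if any of its promoters held the motif, with 40 promoters for the 28 genes and 35116 for the 27305. The genes of the table were taken whether or not they were expressed in these cells, so the shares are not matched for expression. FDPS held 3 NF-Y boxes, SCD 2 and TM7SF2 1, while SREBF1, SCAP and INSIG2 were among the 7 genes with none. These are letter matches only.

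The libraries were first compared with their labels. TEAD4 itself stood at 25.8, 24.4 and 25.0 FPKM in WT untreated, 23.7, 22.9 and 23.8 in WT with GLUP, 30.1, 27.7 and 27.2 in TEAD4KO untreated and 27.8, 29.4 and 26.0 in TEAD4KO with GLUP. The TEAD4 transcript was thus not lower in the libraries labelled TEAD4KO, where it was 15.6% higher over both treatments (adjusted p = 0.0075, limma). Of all tested rows 20.0% passed in that comparison. The TEAD4 difference passed in GLUP-treated cells (adjusted p = 0.048, limma) but not in untreated cells (adjusted p = 0.14, limma). These values are not corrected for transcript length. A transcript level does not show whether the protein is made. Of 5 epithelial markers, 2 were over 1 FPKM, KRT8 at a mean of 5.78 and CDH1 at 2.75 FPKM, with EPCAM at 0.0937 FPKM. Of 4 markers of a mesenchymal state 3 were over 1 FPKM, VIM at 1420, ZEB1 at 19.6 and FN1 at 6.38 FPKM, with CDH2 at 0.0846 FPKM. All 5 gastric mucosa markers were under 1 FPKM, and 4 of them were at 0 in every library. All 5 fibroblast markers had a mean over 1 FPKM, with COL1A1 at 239 and DCN at 63.1 FPKM. PDGFRB was at the limit, with a mean of 1.02 and libraries from 0.820 to 1.27 FPKM. The sum of the 5 fibroblast markers ranged from 656 to 687 FPKM in WT untreated, 688 to 746 in WT with GLUP, 639 to 774 in TEAD4KO untreated and 599 to 716 in TEAD4KO with GLUP. None of 6 adipocyte and hepatocyte markers and none of 4 leukocyte markers reached 1 FPKM. Libraries labelled TEAD4KO had 23.7% to 25.5% of rows at 0, against 21.1% to 22.3% in WT, and TEAD4KO untreated 1 and TEAD4KO GLUP 16 lay closest to WT within their groups. These 2 libraries stand apart, and the results below are also given without them where that changes a count. Fewer cells of a type and less RNA per cell cannot be told apart in such samples.

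The levels of the 31 genes spanned a wide range. FPKM is already divided by gene length, so levels can be set beside each other. SCD, the desaturase that makes oleate, had the highest mean over 12 libraries at 273 FPKM, followed by SQLE, squalene epoxidase, at 267 FPKM and FDPS at 213 FPKM. SCD and SQLE overlapped in the untreated libraries, where SCD ran from 228 to 285 FPKM and SQLE from 245 to 271 FPKM. ACLY, which makes cytosolic acetyl-CoA from citrate, averaged 129 FPKM, FDFT1, squalene synthase, 79.0 FPKM, HMGCS1, the cytosolic HMG-CoA synthase, 66.0 FPKM and FASN, fatty acid synthase, 60.7 FPKM. At the low end stood INSIG2 at 2.51, MVK, mevalonate kinase, at 3.37, TM7SF2, a sterol C14 reductase, at 3.77, FADS2 at 4.24 and ELOVL6 at 4.40 FPKM. Together the 31 genes summed to between 1500 and 1652 FPKM, or 0.354% to 0.423% of the FPKM in a library. The highest library exceeded the lowest by 1.19-fold for CYP51A1, SC5D and DHCR7 and by 2.17-fold for EBP, the widest of the 31.

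**Figure D1:**
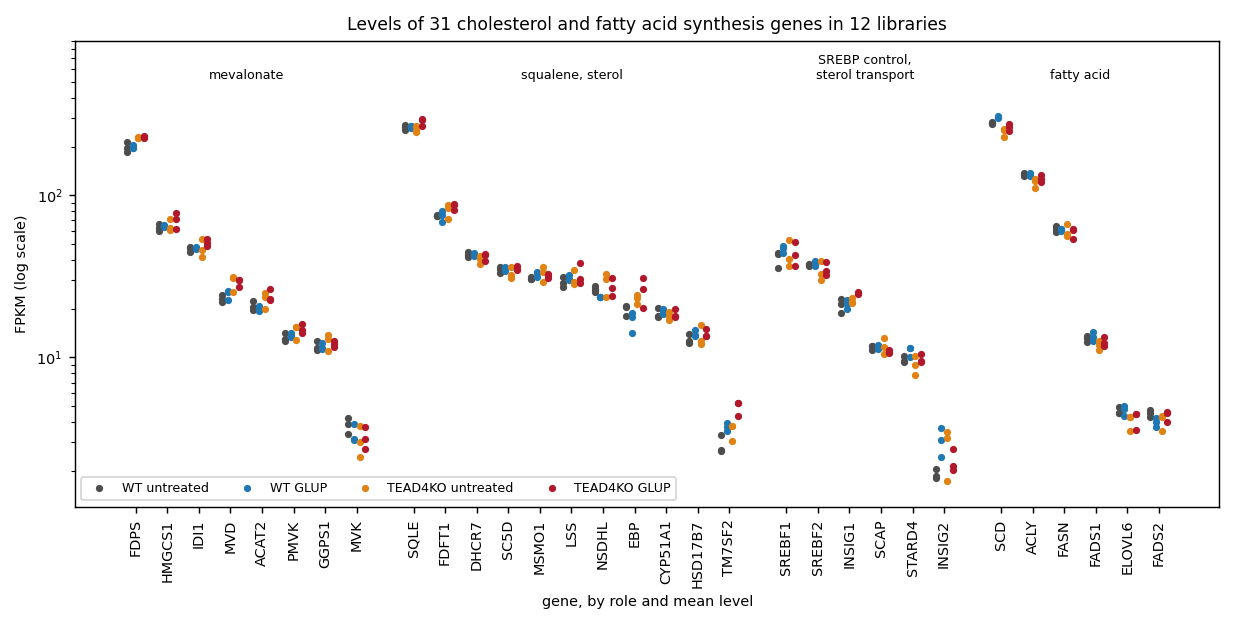
FPKM (log scale) of 31 genes in 12 libraries, with genes grouped by role and ordered by mean level. Each point is 1 library, coloured by group, and the 4 groups of a gene lie close together except in genes such as EBP, TM7SF2 and INSIG2.

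For the genes of sterol synthesis, the library most often highest within its group was counted. WT untreated 2 was the highest of its group for 15 of the 19 mevalonate and sterol enzymes, against 27.6% of all tested rows. WT GLUP 15 was the highest for 12 of 19, TEAD4KO untreated 3 for 11 of 19 and TEAD4KO GLUP 15 for 9 of 19, against 30.2%, 33.6% and 26.7% of all rows. Each library was picked as the most frequent for these genes, so some excess is built in, and genes are not independent. Over all rows the most frequent were WT untreated 1 at 37.8%, WT GLUP 16 at 42.1%, TEAD4KO untreated 1 at 45% and TEAD4KO GLUP 16 at 42.8%. The median coefficient of variation over the 31 genes was 4.87% in WT untreated, 4.03% in WT with GLUP, 10.9% in TEAD4KO untreated and 6.61% in TEAD4KO with GLUP. Over all tested rows it was 5.30%, 5.64%, 11.2% and 9.49% in the same order. Replicates of the untreated TEAD4KO group were therefore the most scattered, for these genes and for all rows.

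The first question is whether GLUP changed these genes. In WT cells 0 of 31 genes passed an adjusted p of 0.05 with limma on log2(FPKM + 1), against 0.00891% of all rows, and in TEAD4KO cells 0 of 31 against 0.0445%. Over both genotypes 0 of 31 passed, against 0.258% of rows. At an unadjusted p under 0.05 there were 2, 2 and 2 genes in these comparisons, beside 385, 716 and 801 of the 11225 tested rows. The median log2 difference of the 31 genes was 0.02 in WT (-0.0014 with median-ratio scaling), 0.05 in TEAD4KO and 0.04 over both, beside 0.01, -0.02 and -0.0040 for all rows. The 95% interval of the difference lay within 1.5-fold in either direction for 30 of 31 genes in WT, 30 in TEAD4KO and 31 over both genotypes, where the same held for 95.6%, 94.7% and 98.9% of all rows.

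TM7SF2, which reduces the C14 double bond of sterol intermediates, had the smallest p among the 31 for GLUP in TEAD4KO cells and over both genotypes. It stood at 3.30, 2.66 and 2.69 FPKM in WT untreated, at 3.72, 3.52 and 3.91 in WT with GLUP, at 3.76, 3.80 and 3.05 in TEAD4KO untreated and at 5.22, 4.37 and 5.27 in TEAD4KO with GLUP. All GLUP libraries lay above the untreated libraries of the same genotype. The log2 difference over both genotypes was 0.34 ± 0.07 (SE), with an adjusted p of 0.097 that missed the threshold, and was 0.28 ± 0.10 in WT (adjusted p = 0.999) and 0.39 ± 0.10 in TEAD4KO (adjusted p = 0.34). The same difference, once the dependence of each library on transcript length and GC content had been taken out, was 0.38 ± 0.06 and passed (adjusted p = 0.023), as did 0.499% of all rows. TM7SF2 lies at chromosome 11, 64879317 to 64883856, plus strand, on GRCh37, where it overlaps VPS51 on the same strand, so reads of the 2 genes may have been split uncertainly.

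TM7SF2 was the only one of the 31 genes whose GLUP and untreated libraries did not overlap, in the same direction, in both genotypes, a pattern seen in 1.66% of all tested rows. In WT alone 6 of 31 genes had groups that did not overlap, against 17.3% of rows. Of these, TM7SF2, SREBF1, INSIG2 and SCD were higher with GLUP, and NSDHL, a sterol dehydrogenase, and FADS2, a fatty acid desaturase, were lower. In TEAD4KO alone there were 2, TM7SF2 and INSIG1, both higher, against 6.83%. These shares lie close to those of all rows.

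SQLE, the epoxidase that commits squalene to sterols, was the other gene with an unadjusted p under 0.05 for GLUP in TEAD4KO cells, and is named after its values were seen. It stood at 263, 271 and 252 FPKM in WT untreated, 269, 269 and 259 in WT with GLUP, 254, 245 and 269 in TEAD4KO untreated and 268, 292 and 294 in TEAD4KO with GLUP. TEAD4KO GLUP 15 and 16 were the highest of the 12 libraries, but TEAD4KO GLUP 14 lay below TEAD4KO untreated 3. The GLUP difference was 0.15 ± 0.06 in TEAD4KO (adjusted p = 0.71) and 0.02 ± 0.06 in WT (adjusted p = 0.999).

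The genes of SREBP control were examined one by one. SREBF2 stood at 37.5, 37.2 and 36.6 FPKM in WT untreated, 36.8, 37.6 and 39.4 in WT with GLUP, 39.5, 30.2 and 32.9 in TEAD4KO untreated and 34.1, 32.1 and 38.6 in TEAD4KO with GLUP. The groups overlapped in all 4 pairs, and the GLUP difference over both genotypes was 0.03 ± 0.06 (adjusted p = 0.96). SREBF1 stood at 44.2, 35.5 and 43.2 FPKM in WT untreated, 47.3, 44.3 and 48.4 in WT with GLUP, 53.0, 40.5 and 36.8 in TEAD4KO untreated and 42.7, 36.8 and 51.3 in TEAD4KO with GLUP. Its highest values were in the 2 libraries that stand apart, and the GLUP difference was 0.10 ± 0.10 (adjusted p = 0.91). SCAP stood at 11.7, 11.8 and 11.1 FPKM in WT untreated, 11.3, 11.5 and 11.9 in WT with GLUP, 13.2, 11.6 and 10.4 in TEAD4KO untreated and 10.6, 11.1 and 10.9 in TEAD4KO with GLUP. The groups of a genotype overlapped, and the GLUP difference was -0.05 ± 0.06 (adjusted p = 0.93). INSIG1, itself a known SREBP target, stood at 23.0, 21.2 and 18.8 FPKM in WT untreated, 21.4, 20.0 and 22.6 in WT with GLUP, 21.5, 21.9 and 23.2 in TEAD4KO untreated and 24.5, 24.8 and 25.4 in TEAD4KO with GLUP. The last group lay above the other 9 libraries, with a GLUP difference in TEAD4KO cells of 0.16 ± 0.08 that missed the threshold (adjusted p = 0.79).

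INSIG2 had the smallest p among the 31 for GLUP in WT and for the interaction, which asks whether the GLUP difference depends on genotype. It stood at 1.80, 2.06 and 1.85 FPKM in WT untreated, at 3.10, 2.44 and 3.64 in WT with GLUP, at 3.17, 1.72 and 3.45 in TEAD4KO untreated and at 2.72, 2.03 and 2.13 in TEAD4KO with GLUP. The WT groups did not overlap and the TEAD4KO groups did. The GLUP difference was 0.47 ± 0.17 in WT (adjusted p = 0.999) and -0.17 ± 0.17 in TEAD4KO (adjusted p = 0.94), and the interaction was -0.65 ± 0.24 (unadjusted p = 0.018, adjusted p = 1.00). It was the only one of the 31 with an unadjusted interaction p under 0.05, beside 284 of the 11225 tested rows. After adjustment 0 of the 31 passed, against 0.00891% of all rows. The interval lay within 1.5-fold for 27 of 31, against 84.3% of all rows. INSIG2 was the lowest of the 31 genes in level, and its 3 values in untreated TEAD4KO had a coefficient of variation of 33.4%.

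**Figure D2:**
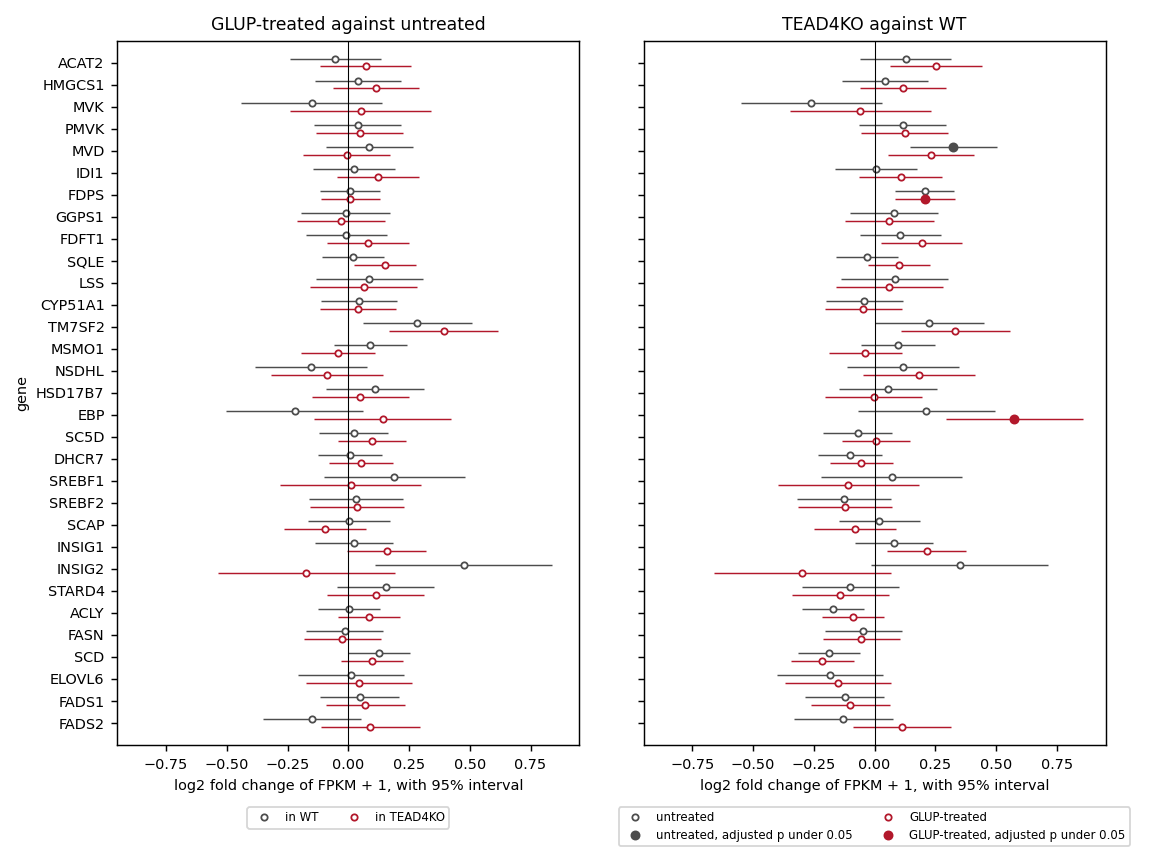
Log2 fold change of FPKM + 1 with its 95% interval for 31 genes, for GLUP against untreated in each genotype (left) and TEAD4KO against WT in each treatment (right). Filled points have an adjusted p under 0.05. None is filled on the left, and MVD, FDPS and EBP each have 1 filled point on the right.

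The second question is how libraries labelled TEAD4KO differed from WT. Over both treatments 7 of 31 genes passed, 5 higher and 2 lower, or 22.6%, against 20.0% of all tested rows, a share near the background. Higher were ACAT2, MVD and FDPS of the mevalonate steps and TM7SF2 and EBP of the sterol steps. Lower were the fatty acid enzymes ACLY and SCD. In untreated cells 1 gene passed (MVD), against 5.42% of rows, and in GLUP-treated cells 2 passed (FDPS and EBP), against 5.84%. The WT and TEAD4KO groups did not overlap for 6 of 31 genes in untreated cells, against 25.7% of rows, for 12 of 31 in GLUP-treated cells, 10 higher and 2 lower, against 29.5%, and in the same direction in both treatments for 4 of 31 (MVD, FDPS, EBP and SCD), against 13.5%. None of the differences exceeded 2-fold. Without TEAD4KO untreated 1 and TEAD4KO GLUP 16, the number that passed was 7 in untreated cells, 6 in GLUP-treated cells and 12 over both treatments. Of all rows 19.9%, 27.8% and 41.4% passed in the same order. Both libraries were picked after seeing the data, and they lay closest to WT within their groups. Leaving them out therefore favours more calls, so the rise is not a result about these genes.

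FDPS makes farnesyl diphosphate, the branch point to sterols and prenyl groups, and had the smallest p of the 31 over both treatments. It stood at 185, 212 and 196 FPKM in WT untreated, 195, 204 and 196 in WT with GLUP, 231, 228 and 225 in TEAD4KO untreated and 232, 229 and 226 in TEAD4KO with GLUP. All 6 TEAD4KO libraries lay above all 6 WT libraries. The log2 difference was 0.21 ± 0.04 over both treatments (adjusted p = 0.0036), 0.21 ± 0.06 in GLUP-treated cells (adjusted p = 0.049) and 0.21 ± 0.06 in untreated cells (adjusted p = 0.052). In a fit with replicate number as block, the adjusted p in GLUP-treated cells was 0.0522 and did not pass. FDPS lies at chromosome 1, 155278539 to 155290457, plus strand, on GRCh37.

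MVD, the decarboxylase that makes isopentenyl diphosphate, stood at 22.9, 24.3 and 22.0 FPKM in WT untreated, 22.8, 25.7 and 25.2 in WT with GLUP, 31.3, 30.9 and 25.5 in TEAD4KO untreated and 29.9, 27.3 and 29.8 in TEAD4KO with GLUP. TEAD4KO untreated 3 lay nearest to WT, and the groups did not overlap within either treatment. MVD rose by 0.28 ± 0.06 over both treatments (adjusted p = 0.0056) and by 0.32 ± 0.08 in untreated cells (adjusted p = 0.039), and the difference in GLUP-treated cells was 0.23 ± 0.08 (adjusted p = 0.11). ACAT2, the cytosolic thiolase at the head of the pathway, stood at 20.4, 22.2 and 19.6 FPKM in WT untreated, 19.2, 20.9 and 19.7 in WT with GLUP, 20.0, 23.5 and 24.9 in TEAD4KO untreated and 23.0, 26.5 and 22.5 in TEAD4KO with GLUP. TEAD4KO untreated 1 lay within the WT range and the other 5 TEAD4KO libraries above it. ACAT2 rose by 0.19 ± 0.06 over both treatments (adjusted p = 0.045). ACAT2 overlaps TCP1 on the other strand, and whether counting used strand is not stated. Of the other 5 mevalonate genes, HMGCS1, PMVK, IDI1 and GGPS1 had positive differences and MVK a negative one of -0.16, and 0 of these passed.

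EBP, the sterol isomerase, stood at 20.5, 18.0 and 20.7 FPKM in WT untreated, 17.8, 18.7 and 14.2 in WT with GLUP, 24.3, 21.4 and 23.4 in TEAD4KO untreated and 26.5, 30.8 and 20.3 in TEAD4KO with GLUP. TEAD4KO GLUP 16 lay below the others of its group and within the range of WT untreated. EBP overlaps another annotated protein-coding gene on the same strand, which has no row here, so its reads may have been assigned uncertainly. EBP rose by 0.58 ± 0.13 in GLUP-treated cells (adjusted p = 0.022) and by 0.39 ± 0.09 over both treatments (adjusted p = 0.010), and the difference in untreated cells was 0.21 ± 0.13 (adjusted p = 0.37). TM7SF2, whose values are given above, rose by 0.28 ± 0.07 over both treatments (adjusted p = 0.019), and WT with GLUP overlapped TEAD4KO untreated. Of the remaining 9 sterol enzymes, 6 had positive and 3 negative differences over both treatments and 0 passed, among them SQLE, LSS and DHCR7, the epoxidase, the cyclase and the last reductase of the chain.

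SCD was lower in TEAD4KO. It stood at 279, 274 and 285 FPKM in WT untreated, 304, 301 and 311 in WT with GLUP, 253, 228 and 256 in TEAD4KO untreated and 276, 250 and 263 in TEAD4KO with GLUP. The 2 genotypes did not overlap within either treatment, while TEAD4KO GLUP 14, at 276 FPKM, lay within the range of WT untreated. SCD fell by 0.20 ± 0.04 over both treatments (adjusted p = 0.0054), from a mean of 292 to 254 FPKM, and the differences within treatments were -0.19 ± 0.06 in untreated (adjusted p = 0.084) and -0.22 ± 0.06 in GLUP-treated cells (adjusted p = 0.051). For GLUP over both genotypes the SCD difference was 0.11 ± 0.04 (unadjusted p = 0.019, adjusted p = 0.55). SCD lies at chromosome 10, 102106990 to 102124583, plus strand, on GRCh37.

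ACLY stood at 136, 138 and 131 FPKM in WT untreated, 137, 136 and 132 in WT with GLUP, 126, 111 and 123 in TEAD4KO untreated and 133, 122 and 126 in TEAD4KO with GLUP. The groups did not overlap in untreated cells but did with GLUP, where TEAD4KO GLUP 14 was above WT GLUP 16. ACLY fell by 0.13 ± 0.04 over both treatments (adjusted p = 0.044), and a fit with replicate number as block gave an adjusted p of 0.0504, which did not pass. All 6 measured fatty acid genes had a negative difference over both treatments, with a median of -0.12, against 0.0080 for all rows, although FASN, FADS1, FADS2 and ELOVL6 did not pass. With quantile normalization or correction for GC content and length, 5 of the 6 were negative, with medians of -0.145 and -0.074. FADS1 and FADS2 overlap on opposite strands, and FADS2 also overlaps FEN1, so their values are uncertain. Of the 8 mevalonate enzymes 7 were positive, with a median of 0.10, and of the 11 sterol enzymes 8 were, with a median of 0.03. With quantile normalization these numbers were 5 and 6 and the medians 0.08 and 0.0076.

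**Figure D3:**
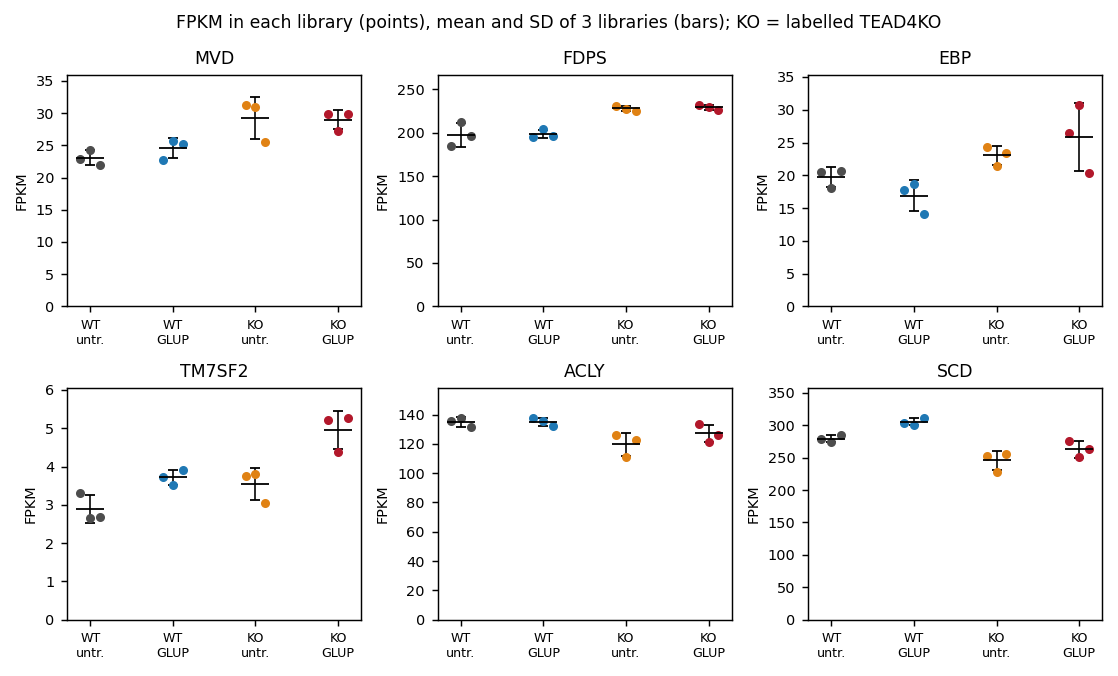
FPKM of MVD, FDPS, EBP, TM7SF2, ACLY and SCD in each of 12 libraries (points), with the mean and SD of each group of 3 (bars), on axes that start at 0. FDPS and MVD are higher and SCD lower in both TEAD4KO (KO) groups than in the WT group of the same treatment, and TM7SF2 is highest in TEAD4KO with GLUP.

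Differences between the labels moved with transcript length across the whole table. Over both treatments Spearman's rho between the log2 difference and the longest annotated transcript was -0.497 across 11077 rows and -0.723 across the 31 genes. Genes are not independent replicates, all these differences share the same 12 libraries, and no p is given. In the shortest 10% of rows, from 78 to 1643 bases, the median difference was 0.17, and in the longest 10%, from 8091 bases upward, it was -0.12. The roles also differ in length, with a median of 2623.5 bases for mevalonate genes, 2850 for sterol genes, 4442.5 for SREBP control and 5159 for fatty acid genes, against 3922 for all rows. EBP has 1125 bases, ACAT2 1641, FDPS 2017, TM7SF2 2094 and MVD 2352, all higher in TEAD4KO, whereas ACLY has 4318 and SCD 5245, both lower.

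With the same correction for transcript length and GC content, 3 of 31 genes passed over both treatments, against 16.1% of all rows. FDPS was at 0.12 ± 0.03 (adjusted p = 0.033) and SCD at -0.12 ± 0.03 (adjusted p = 0.028). DHCR7, which makes cholesterol from its last precursor and is named after its values were seen, had not passed before and was at -0.12 ± 0.04 (adjusted p = 0.040). It stood at 42.8, 45.0 and 41.7 FPKM in WT untreated, 43.9, 43.6 and 42.5 in WT with GLUP, 42.1, 37.8 and 40.6 in TEAD4KO untreated and 43.3, 39.2 and 42.7 in TEAD4KO with GLUP, and the groups overlapped in both treatments. EBP was at 0.26 ± 0.09 (adjusted p = 0.068), MVD at 0.12 ± 0.04 (adjusted p = 0.064), ACAT2 at 0.09 ± 0.04 (adjusted p = 0.16), TM7SF2 at 0.09 ± 0.06 (adjusted p = 0.34) and ACLY at -0.09 ± 0.04 (adjusted p = 0.12). Within each treatment 0 of 31 passed after this correction, against 3.81% of rows in untreated and 4.45% in GLUP-treated cells. What gave rise to the trend with length was not tested.

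**Figure D4:**
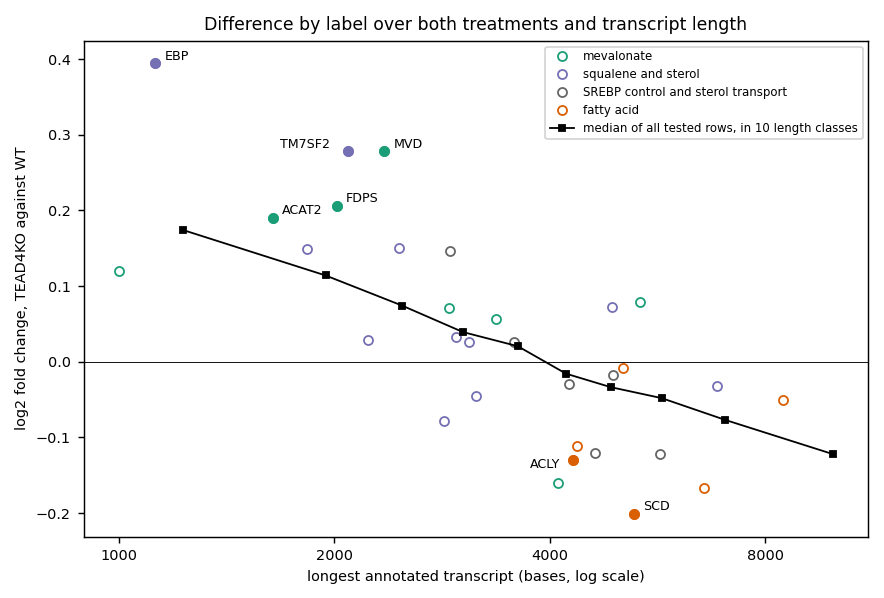
Log2 difference between TEAD4KO and WT over both treatments against the length of the longest annotated transcript (log scale) for 31 genes, coloured by role. Filled points have an adjusted p under 0.05 and are named, and the black line is the median of all tested rows in each of 10 length classes, from 0.17 for the shortest to -0.12 for the longest.

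Further genes of the pathways, 37 of 41 of them measured, were listed by function. GLUP gave 0 calls among them in WT, in TEAD4KO and over both genotypes. Over both treatments 10 were higher and 4 lower in TEAD4KO, or 37.8%, beside 20.0% of all rows. These calls and those below are not corrected for transcript length, with which differences between the labels moved. Among 14 genes of fatty acid supply, activation and elongation, 6 were higher and 1 lower. SLC25A1, the mitochondrial citrate carrier, rose by 0.24 ± 0.04 (adjusted p = 9.3e-04), MCAT, of mitochondrial fatty acid synthesis, by 0.39 ± 0.06 (adjusted p = 0.0012), and MID1IP1, an activator of acetyl-CoA carboxylase, by 0.25 ± 0.04 (adjusted p = 0.0022). Their longest transcripts have 1598, 2057 and 4814 bases in that order. These 3 also passed in untreated cells, where 4 of the 37 were higher and 0 lower (10.8%, beside 5.42% of rows). In GLUP-treated cells 1 was higher (SLC25A1) and 2 lower (8.11%, beside 5.84%). Among 10 further genes of sterol synthesis, uptake and SREBP cleavage, 1 was higher and 1 lower, and among 8 genes of the prenyl and dolichol branches 1 was higher.

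Of the 5 genes of the list for LXR, the receptors that sense oxysterols, and their targets, 2 were higher and 2 lower in TEAD4KO over both treatments. That is 80% of a list of only 5, beside 20.0% of all rows. The higher ones, named after their values were seen, were the receptors NR1H2 (0.31 ± 0.08, adjusted p = 0.015) and NR1H3 (0.35 ± 0.08, adjusted p = 0.0096). The lower ones were ABCA1 and ABCG1, which export cholesterol from cells. The longest transcript has 3592 bases for NR1H2, 2731 for NR1H3, 10413 for ABCA1 and 3475 for ABCG1. The values for these genes are likewise not corrected for length. In GLUP-treated cells ABCG1 stood at 6.38, 6.08 and 7.70 FPKM in WT and at 4.81, 3.10 and 4.02 in TEAD4KO. ABCA1 stood at 8.52, 7.29 and 9.78 FPKM in WT and at 6.06, 4.71 and 5.69 in TEAD4KO. Neither pair of groups overlapped, which also held for 29.5% of all tested rows. Both genes fell, ABCG1 by 0.64 ± 0.13 (adjusted p = 0.010) and ABCA1 by 0.55 ± 0.14 (adjusted p = 0.033), where 5.84% of all rows passed. In untreated cells the groups overlapped for both, with differences of -0.03 ± 0.13 for ABCG1 (adjusted p = 0.92) and -0.24 ± 0.14 for ABCA1 (adjusted p = 0.33). The interaction did not pass for either (adjusted p = 1.00), with an unadjusted p of 0.0045 for ABCG1 and 0.13 for ABCA1.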

How the data were processed

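Per the submitters' notes, reads were processed with HISAT2, Cufflinks and RSEM on hg19, with no versions or roles given, and the study's methods name an online cloud platform. The authors deposited FPKM values (fragments per kilobase, scaled to the mapped total), 1 column per library and 1 row per Ensembl gene, with replicates not pooled. Depth is unknown, so no counting interval is given. Whether libraries were stranded is not given in the sources used here. FPKM keeps trends of a library with transcript length and GC content, and a change in a few abundant genes shifts the rest.

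Values were analysed as log2(FPKM + 1), which understates the change of low genes, for the 11225 rows whose mean over all libraries reached 1 FPKM. One 4-group model was fitted to all 12 libraries with limma 3.58.1 (eBayes with trend) in R 4.3.3, without covariates. Two-sided p-values were adjusted by Benjamini-Hochberg over all tested rows in each of 7 comparisons, and a call was an adjusted p under 0.05. No fold limit was set, and a limit of 2-fold, as in the study, was an alternative. An exact permutation test of 3 against 3 cannot go below 0.1 and was not used. Names, lengths and positions came from GENCODE 44 lifted to GRCh37. The GC and length correction used splines with 5 degrees of freedom. It was tried on simulated data with a planted trend in transcript length, but none in GC content. The model was tried on simulated data with planted changes. Genes in full are those called in any comparison, those with the smallest p in each, SREBF1, SREBF2, SCAP, INSIG1, INSIG2 and TEAD4, with SQLE and DHCR7 added after their values were seen. The members and lists were chosen with earlier results of these data known.

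Pairing by replicate number, taken from the sample titles, was checked through correlations of deviations from group means. These were 0.106, 0.152 and 0.336 for libraries 14, 15 and 16, and -0.0569, 0.203 and -0.0149 for libraries 1, 2 and 3. The main model used no pairing. The replicate block, run only as an alternative, paired all replicate numbers, with and without GLUP. Differently numbered GLUP libraries reached 0.134.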

Additional observations from a re-analysis of the deposited data

How the results depend on the processing

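For GLUP in WT, GLUP in TEAD4KO and the interaction, 0 of 31 genes passed under every alternative run, and for GLUP over both genotypes 1 passed with GC and length correction (TM7SF2) and 0 otherwise. No called gene changed direction. The share of all rows that passed also moved with the setting. It is given above only for GC and length correction and without both libraries that stand apart. For the other settings the counts below stand without it, so a change in them is not a result about these genes. For TEAD4KO over both treatments, where 7 passed, 3 passed with GC and length correction and 2 with that correction and the replicate block. With a fold limit of 2, 0 passed. Without both libraries that stand apart 12 passed (7 higher), an alternative chosen after seeing the data. It leaves out the TEAD4KO libraries closest to WT within their groups, which favours more calls here and below. Leaving out 1 library gave 4 to 10, the 4 without WT untreated 3. The replicate block alone gave 6, and changed no call among the genes named other than FDPS in GLUP-treated cells and ACLY.

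For TEAD4KO in untreated cells, where 1 passed, 0 passed with no filter, median-ratio scaling, GC and length correction, no trend, array weights, the fold limit, only the groups compared, or the block with correction. With a mean of at least 5 FPKM 2 passed, with quantile normalization 2 (ACLY and SCD, both lower), and without both libraries that stand apart 7 (4 higher). Leaving out 1 library gave 0 to 2, with 0 without WT untreated 1 or 3 or WT GLUP 15 or 16 and 2 without TEAD4KO GLUP 16, and MVD was lost in 7 of 12.

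For TEAD4KO in GLUP-treated cells, where 2 passed, 0 passed with no filter, GC and length correction, the fold limit or only the groups compared, 1 with median-ratio scaling, no trend or the block with correction, 3 with quantile normalization (TM7SF2 and EBP higher, SCD lower, FDPS lost), and 6 with array weights or without both libraries that stand apart. Leaving out 1 library gave 0 to 4, with 0 without WT GLUP 14 or 16 or TEAD4KO GLUP 14 or 15, 1 without WT untreated 1 or 3 or WT GLUP 15, and 4 without TEAD4KO untreated 1 or TEAD4KO GLUP 16. FDPS was lost in 8 of 12 and EBP in 4.

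Of the 7 genes over both treatments, apart from the fold limit, SCD passed in 23 of 23 alternatives, FDPS and EBP in 22, MVD in 21, TM7SF2 in 19 of 22, ACLY in 10 and ACAT2 in 8. The cause of these changes was not tested. INSIG2, the lowest of the 31 genes, had the largest standard error, 0.17 within each genotype or treatment.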
